A study of Mus musculus with 12 samples.

Results

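Prl, Gh and Pomc encode the main hormones of the anterior and intermediate pituitary. They were taken by symbol from the raw gene counts of mouse cortex, as 3 of the 24062 genes in the table, and were chosen on their raw counts in these same libraries. Their levels are therefore given as a description, without a test. The question was whether the 3 genes were high in the same libraries, which is the pattern that a piece of pituitary tissue would give.

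RNA was sequenced from the cortex of mice aged 9 months, with 3 libraries in each of 4 groups. WT mice carried neither change. Tia1+/- mice carried 1 null allele of Tia1, which encodes an RNA-binding protein of stress granules. PS19 mice carried the human P301S tau transgene, which the Prnp promoter drives, and both Tia1 alleles. P301S Tia1+/- mice carried the tau transgene and 1 null allele of Tia1. The PS19 stock is listed as B6;C3. Per the methods, PS19 mice were crossed with Tia1-/- mice, which gave Tia1+/- offspring with or without the transgene. These were intercrossed to give PS19 and P301S Tia1+/- mice as littermates that shared a background. The methods do not state the background of the WT mice that were sequenced.

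Prolactin, the product of Prl, is made by lactotrophs and drives milk production. Growth hormone, the product of Gh, is made by somatotrophs and raises hepatic Igf1. Both genes depend on the pituitary transcription factor Pou1f1. Pomc encodes the precursor of ACTH, melanocyte-stimulating hormone and beta-endorphin, and is made by corticotrophs, melanotrophs and neurons of the hypothalamic arcuate nucleus. Cortex is not known as a major source of any of these hormones. In bulk RNA, a change in the number of cells of a type and a change in RNA per cell cannot be told apart.

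Groups follow the titles of the libraries. The deposited genotypes are exchanged between the libraries titled Tia1+/- and those titled P301S Tia1+/-. Library totals lay between 11978962 and 19146484 counts. CPM below stands for counts divided by the TMM-scaled library size, times 1e6. Tia1 itself had 82.0 ± 10.3 CPM (SD, n = 3) in libraries labelled WT (93.8, 76.8 and 75.4) and 68.0 ± 10.3 in those labelled Tia1+/- (61.4, 62.8 and 79.8). With the tau transgene it had 73.5 ± 3.87 CPM in PS19 (77.9, 70.8 and 71.9) and 74.7 ± 2.76 with the P301S Tia1+/- label (72.6, 73.5 and 77.8). The ranges of Tia1+/- and WT overlapped, as did those of P301S Tia1+/- and PS19, so Tia1 did not verify the genotype labels. Xist, the RNA of the inactive X chromosome, had 3304 to 5693 counts in each of the 6 libraries labelled Tia1+/- or P301S Tia1+/- and 0 to 13 in the other 6, although the methods name male mice only. Sex and Tia1 label therefore cannot be told apart in any level given here. The paper reads the higher Xist as an effect of Tia1 heterozygosity and also reports it by PCR in separate male mice. Which reading holds for these libraries was not tested.

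Prl lies on chromosome 13 of GRCm38 (chr13:27057570-27065205, plus strand, ENSMUSG00000021342.14), and its main transcript has 5 exons and 895 bases. Gh lies on chromosome 11 (chr11:106300271-106301865, minus strand, ENSMUSG00000020713.6), with 5 exons and 862 bases. Pomc lies on chromosome 12 (chr12:3954951-3960642, plus strand, ENSMUSG00000020660.6), with 4 exons and 1043 bases. The annotation places Gm47888 on the opposite strand within Prl. The strand setting of the counting is not given in the sources used here, so reads of Gm47888 and Prl cannot be told apart.

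The windows of 250 bases before the transcription start were read from RefSeq (GRCm38.p6) for the genes that the promoter table held, Prl and Pomc. They are shown as background, and no link between these sequences and the levels below was tested. Gh, which also depends on Pou1f1, had no window to set beside that of Prl. Capitals mark matches, on either strand, to TATNCAT, a core of the kind Pou1f1 binds, or to TATAAA, the TATA box. The Prl window is chr13:27057320-27057569 and the Pomc window chr12:3954695-3954944, both on the plus strand.
Prl: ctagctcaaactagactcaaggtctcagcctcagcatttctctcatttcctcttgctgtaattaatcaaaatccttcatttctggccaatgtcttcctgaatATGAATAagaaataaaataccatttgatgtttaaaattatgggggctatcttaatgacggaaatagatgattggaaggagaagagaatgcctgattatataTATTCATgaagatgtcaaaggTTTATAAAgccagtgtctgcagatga
Pomc: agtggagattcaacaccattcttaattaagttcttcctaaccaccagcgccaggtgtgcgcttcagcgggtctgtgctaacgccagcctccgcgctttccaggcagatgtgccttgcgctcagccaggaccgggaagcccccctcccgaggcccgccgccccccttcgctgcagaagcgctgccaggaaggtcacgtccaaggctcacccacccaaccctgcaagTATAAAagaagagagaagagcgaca

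The Prl window held TATNCAT at 2 places, beginning 148 and 47 bases before the start, and the Pomc window held no match. Of 32851 windows of this length, 7.92% held such a match. The TATA box motif began 24 bases before the start in Prl, where it overlaps a match on the other strand at 26, and 25 bases before the start in Pomc. It was found in 12.4% of windows. These matches describe the letters of the windows and are not evidence of binding.

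Prl had 82, 246 and 515 counts in Tia1+/- libraries 1, 2 and 3. The WT libraries held 3, 1 and 1 counts, PS19 libraries 6, 0 and 0, and P301S Tia1+/- libraries 3, 73 and 12. All 3 Tia1+/- libraries were thus above every other library, and P301S Tia1+/- library 2 came next. Of 942 Prl counts in all, 89.5% were in Tia1+/- and 9.34% in P301S Tia1+/-. A count of 0 does not show absence, since its exact Poisson 95% interval reached 0.295 CPM in PS19 library 2 and 0.222 in PS19 library 3. The floor of 3 counts used below is a set value and not the limit of these intervals. All intervals cover counting error only.

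In CPM, Prl was 5.66, 16.2 and 33.2 in Tia1+/-, a mean of 18.3 ± 13.9 (SD, n = 3). The exact Poisson 95% intervals of the 3 libraries, 4.5 to 7.02, 14.2 to 18.3 and 30.4 to 36.2, did not overlap, so the Tia1+/- libraries differed from each other by more than counting error. The WT mean was 0.134 ± 0.0924, with no library above 3 counts. Against a floor of 3 counts per library, Prl was at least 76-fold higher in Tia1+/- than in WT, and the groups did not overlap. For comparison, 110 of the 15440 genes tested, or 0.712%, were called in either direction between Tia1+/- and WT by edgeR at an adjusted p under 0.05, and nothing is read from this beside a gene chosen for its counts. Without Tia1+/- library 3, the Tia1+/- mean fell to 10.9 CPM.

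Prl in P301S Tia1+/- was 0.189, 4.38 and 0.714 CPM, a mean of 1.76 ± 2.28 (SD, n = 3). That was 10.4-fold lower than in Tia1+/-, again without overlap. Between these groups 0% of genes were called in either direction by edgeR, 2405 had an unadjusted p under 0.05, and DESeq2 called 403. The mean of P301S Tia1+/- rested on library 2, without which it was 0.451 CPM. PS19 had 0.104 ± 0.18 CPM, all of it from library 1. The ranges of P301S Tia1+/- and PS19 overlapped, and no fold is given between PS19 and WT, which were both near the floor.

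Gh had 18, 59 and 146 counts in Tia1+/- libraries 1, 2 and 3. The WT libraries held 8, 5 and 24 counts, PS19 libraries 17, 3 and 0, and P301S Tia1+/- libraries 2, 48 and 9. Tia1+/- libraries 3 and 2 were the highest and P301S Tia1+/- library 2 the next. Tia1+/- library 1, rank 3 of 12 for Prl, was below WT library 3 for Gh in counts and in CPM. Of 339 Gh counts, 65.8% were in Tia1+/-.

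Gh reached 1.24, 3.88 and 9.41 CPM in Tia1+/-, a mean of 4.84 ± 4.17 (SD, n = 3). The means were 0.963 ± 0.755 for WT, 0.374 ± 0.457 for PS19 and 1.18 ± 1.49 for P301S Tia1+/-. The ratio of the means of Tia1+/- and WT was 5.03, but their ranges overlapped, as did those of WT with PS19 and of P301S Tia1+/- with every other group. The lowest Tia1+/- library lay above the highest PS19 library (0.883). WT library 3, at 1.83 CPM, lay above Tia1+/- library 1 while holding 1 count of Prl. Without library 3 the Tia1+/- mean was 2.56 CPM and, separately, the WT mean was 0.532. Without library 2 the P301S Tia1+/- mean was 0.331, and without library 1 the PS19 mean was 0.12.

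Pomc had 18, 44 and 49 counts in Tia1+/- libraries and 25, 32 and 57 in P301S Tia1+/- libraries, against 22, 10 and 10 in WT and 26, 7 and 16 in PS19. It was present in all 12 libraries and varied far less than Prl. The highest level was in P301S Tia1+/- library 3, at 3.39 CPM, followed by Tia1+/- libraries 3 and 2, at 3.16 and 2.89.

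The means of Pomc were 2.43 ± 1.04 CPM in Tia1+/-, 2.29 ± 0.965 in P301S Tia1+/-, 1.12 ± 0.555 in WT and 0.958 ± 0.395 in PS19 (SD, n = 3 each). Tia1+/- was 2.16-fold above WT, with overlap. P301S Tia1+/- was 2.39-fold above PS19, without overlap in CPM, although the lowest P301S Tia1+/- library (1.57) and the highest PS19 library (1.35) lay within each other's counting intervals. Of all genes tested, edgeR called 0.240% in either direction between P301S Tia1+/- and PS19. That is a stricter measure than ranges that do not overlap. The share of all genes without overlap is not given for any comparison here, so a lack of overlap is not read as rare. Tia1+/- and P301S Tia1+/- overlapped, unlike for Prl.

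**Figure D1:**
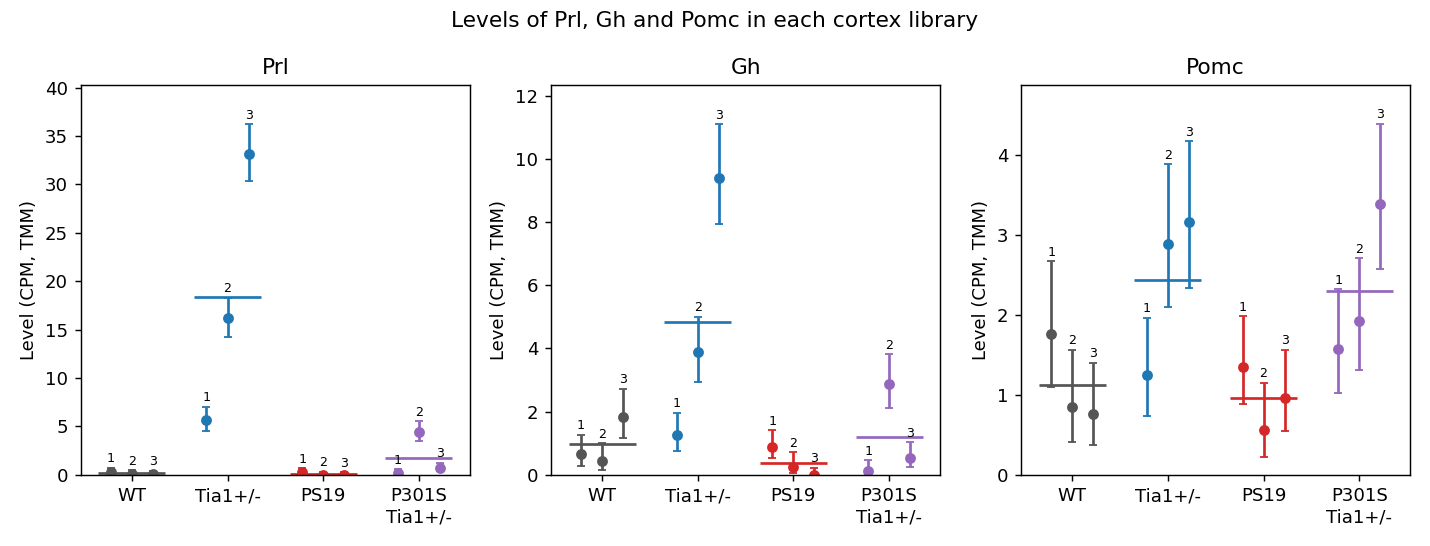
Level of Prl, Gh and Pomc (CPM after TMM scaling, linear axes that differ in scale) in each library, by group. Points are libraries with their replicate number, bars are exact Poisson 95% intervals and horizontal lines are group means. Prl was above every other library in the 3 Tia1+/- libraries (5.66 to 33.2 CPM), whereas the Tia1+/- and WT ranges overlapped for Gh and for Pomc.

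The means of all 3 genes were highest in Tia1+/-, followed by P301S Tia1+/-, WT and PS19, but the separation of the groups differed. For Prl, Tia1+/- stood apart from P301S Tia1+/-, and the ranges of P301S Tia1+/-, WT and PS19 overlapped from each to the next. For Gh and Pomc no neighbours in the order were separate. Within Tia1+/-, the highest library exceeded the lowest 5.86-fold for Prl, 7.57-fold for Gh and 2.54-fold for Pomc. Within P301S Tia1+/- these ratios were 23.2, 22.9 and 2.16. The Prl and Gh ratios there are poorly determined, since library 1 held 3 counts of Prl and 2 of Gh, at or below the floor of 3. Prl and Gh thus spread widely over the libraries of each of these groups, and Pomc did not.

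Levels of different genes were compared per kilobase of transcript. In Tia1+/-, Prl was at 20.5 ± 15.5 CPM per kb, Gh at 5.62 ± 4.83 and Pomc at 2.33 ± 0.995 (SD, n = 3). In WT the same means were 0.149, 1.12 and 1.08, so that Prl had the highest mean of the 3 genes in Tia1+/- and the lowest in WT. In P301S Tia1+/- they were 1.97, 1.37 and 2.2, and in PS19 0.116, 0.434 and 0.919.

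Prl made up a larger part of the Prl and Gh counts in Tia1+/- than in WT or PS19. It made up 82.0%, 80.7% and 77.9% in the Tia1+/- libraries, with exact binomial (Clopper-Pearson) 95% intervals of 73.1 to 89.0, 75.8 to 84.9 and 74.6 to 81.0. In P301S Tia1+/- library 2, with 121 such counts, Prl made up 60.3% (51.0 to 69.1). That interval lay below all 3 of Tia1+/-. Libraries 1 and 3 of this group gave 60.0% (14.7 to 94.7) and 57.1% (34.0 to 78.2) on 5 and 21 counts, too few to place them.

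In WT, Prl made up 27.3% (6.02 to 61.0), 16.7% (0.421 to 64.1) and 4.0% (0.101 to 20.4) of the Prl and Gh counts. In PS19 it was 26.1% (10.2 to 48.4) in library 1 and 0 of 3 counts in library 2, and library 3 held neither gene. The upper limits in WT and PS19 library 1 lay below the lower limits of all Tia1+/- libraries. The 2 genes were therefore not in 1 fixed ratio over the libraries.

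Pomc made up 15.3%, 12.6% and 6.9% of the counts of the 3 hormones in Tia1+/- libraries 1, 2 and 3. It made up 20.9% in P301S Tia1+/- library 2 and 83.3% and 73.1% in the other libraries of that group. In WT it was 66.7%, 62.5% and 28.6%, and in PS19 53.1%, 70.0% and, in library 3, all 16 counts. The share of Pomc was lowest in the 4 libraries with the most Prl. Since Prl counts are part of the total, a low share there follows from high Prl and says nothing of the level of Pomc.

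**Figure D2:**
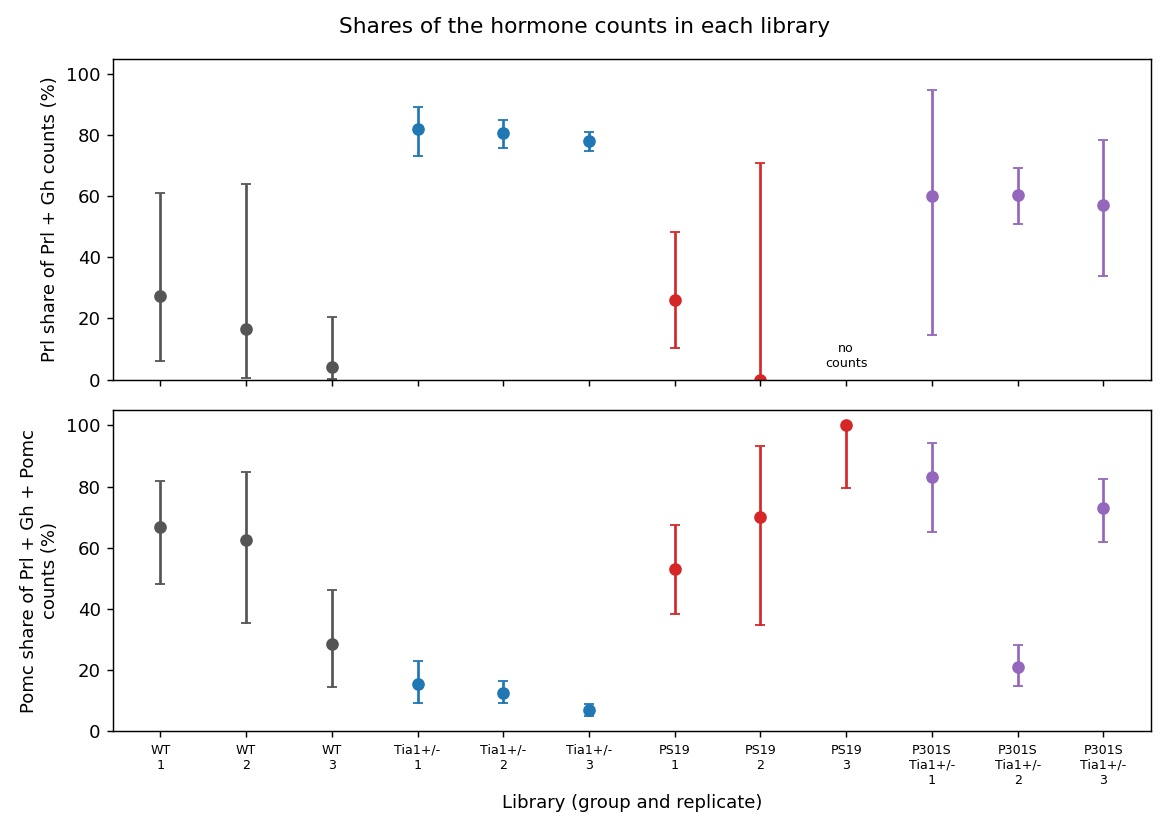
Share of Prl among Prl and Gh counts (upper, %) and of Pomc among the counts of all 3 genes (lower, %) in each library, coloured by group, with exact binomial 95% intervals. The Prl share was 77.9% to 82.0% in Tia1+/-, 57.1% to 60.3% in P301S Tia1+/- and at most 27.3% elsewhere. PS19 library 3 had no Prl or Gh count.

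Over the 12 libraries, log2(CPM + 1) of Prl and Gh had a Pearson r of 0.893 and a Spearman rho of 0.785. These are descriptions without a p, since the genes were chosen for this pattern and the points share depth and group. Without the libraries farthest from the median of Prl (Tia1+/- 2 and 3), r was 0.657 over 10 libraries, and without all Tia1+/- libraries it was 0.724 over 9. Prl and Pomc had an r of 0.666 and a rho of 0.788, and r was 0.346 without Tia1+/- 2 and 3. Gh and Pomc had an r of 0.569 and a rho of 0.462, falling to an r of 0.158. The Prl and Gh relation was thus the closest of the 3 by r. By rank it was not, since without Tia1+/- 2 and 3 rho was 0.626 for Prl and Gh, 0.717 for Prl and Pomc and 0.224 for Gh and Pomc. Without all Tia1+/- libraries, rho was 0.619, 0.862 and 0.267 in the same order.

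By rank, each pair of genes shared 2 of its 3 highest libraries and 3 of its 4 highest. The shared libraries were in every case Tia1+/- 2, Tia1+/- 3 and P301S Tia1+/- 2. The remaining place among the 4 was Tia1+/- 1 for Prl, WT 3 for Gh and P301S Tia1+/- 3 for Pomc. The 3 genes thus ranked high together in 3 libraries of 2 groups. For Pomc in P301S Tia1+/- library 2 this was a matter of rank only. Its 1.92 CPM (95% interval 1.31 to 2.71) was within counting error of WT library 1, at 1.76 (1.1 to 2.67). Among the 5 highest, Prl and Gh also shared Tia1+/- 1, and Prl and Pomc shared P301S Tia1+/- 3.

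**Figure D3:**
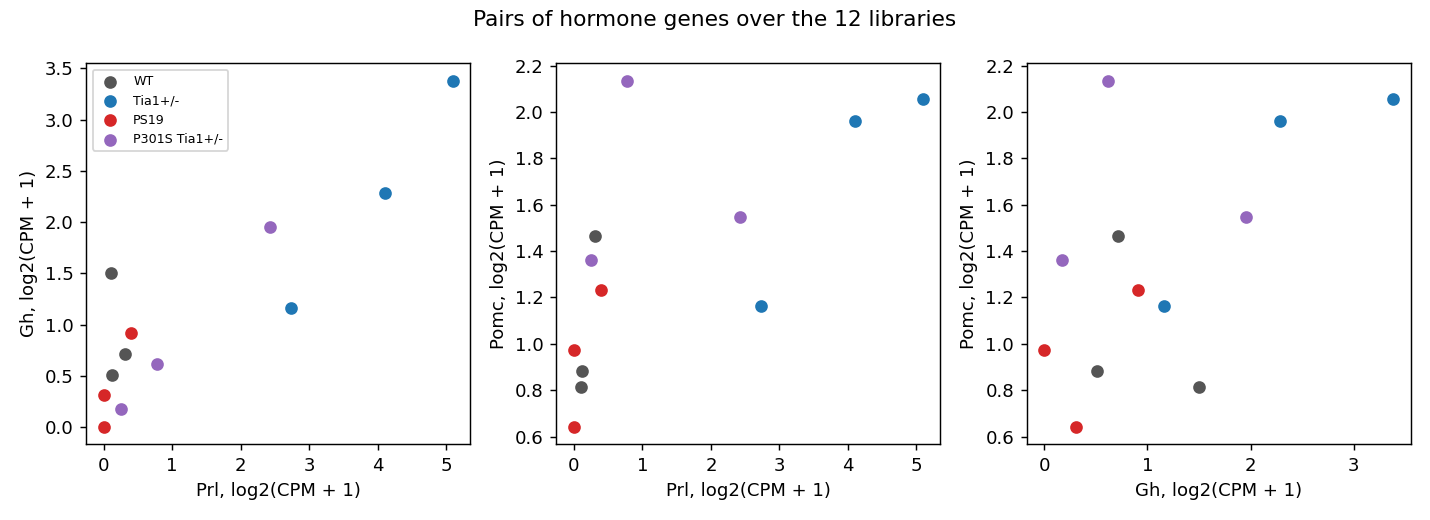
Pairs of the 3 hormone genes over the 12 libraries, on a log2(CPM + 1) scale on both axes, with points coloured by group. Prl and Gh (left, r = 0.893) lie closer to a line than Prl and Pomc (middle, r = 0.666) or Gh and Pomc (right, r = 0.569), where P301S Tia1+/- library 3 is high in Pomc at low Prl and Gh.

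Among the other genes tested, those most like each hormone were ranked by r on the same scale over the 12 libraries. Gh stood at rank 2 of 15439 for Prl, behind Vmn2r57 (r = 0.897), a vomeronasal receptor gene. The first 10 also held Mrpl55 (0.864), Rpe65, Prkcq, Cox15, Npr2, Rtn4ip1 and 2610507I01Rik (0.829), with Pomc at rank 206. For Gh the nearest gene was Prl, followed by Ctbs (0.864), Rpe65, Med27, Mir331, 4933407K13Rik, B430212C06Rik, Ddt, Utrn and Fancg (0.794). Pomc was at rank 381 there.

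The 10 genes nearest to Pomc were 1600002H07Rik (0.95), Ing4, Pank4, Acpt, Rarg, Idua, Ppil1, Exoc3l4, Rmrp and Leprot (0.865). Prl came at rank 514 and Gh at rank 1314. An r of at least 0.8 was reached by 22 genes with Prl, 9 with Gh and 65 with Pomc. None of these first 10 genes is on the pituitary lists below. These ranks depended on single libraries and on the measure. Without Tia1+/- library 3, Gh fell to rank 19 for Prl and Prl to rank 4 for Gh. Without P301S Tia1+/- library 3, Prl rose to rank 16 (r = 0.829) and Gh to rank 97 for Pomc. By Spearman's rho, Pomc was at rank 47 and Gh at rank 54 for Prl.

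The other genes of the pituitary were taken from lists of 35 genes, 34 of them in the table under those symbols. The hormone subunits Cga (shared by the glycoprotein hormones), Tshb (thyrotropin), Lhb and Fshb (gonadotropins) had 59 counts in all 12 libraries together, none reached 10 counts in a library, and Fshb had none at all. Cga and Tshb, named after their values were seen, were highest in Tia1+/- library 3, which had the most Prl. Cga had 5 and 7 counts in Tia1+/- libraries 2 and 3 and 0 to 2 in the other 10. Tshb had 5 and 8 counts in those libraries and 7 in P301S Tia1+/- library 2, but also 5 in PS19 library 3, where Prl and Gh had none. Tia1+/- library 1, rank 3 of 12 for Prl, had 0 counts of Cga and 1 of Tshb, and P301S Tia1+/- library 2 had 1 of Cga.

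The 11 transcription factors of the pituitary had 54 counts in all, and none reached 10 in a library. Pou1f1, which activates Prl and Gh, had 1 count, in PS19 library 3. Tbx19, the corticotroph factor upstream of Pomc, had 1 count in each of Tia1+/- library 3 and P301S Tia1+/- library 2. Lhx3 gave 28 of the 54 counts, with up to 6 in PS19 library 1. These 15 genes together had 30 counts in Tia1+/- library 3, 14 in Tia1+/- library 2, 13 in P301S Tia1+/- library 2 and in PS19 library 3, and 2 to 9 elsewhere, of which Tia1+/- library 1 had 2. The defining factors of pituitary tissue were therefore at or near 0 in every library, those with most Prl included, and at this depth a low level of them was not detectable.

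Of 8 receptors known from pituitary cells, 4 reached 10 counts. Trhr, the thyrotropin-releasing hormone receptor, had 35, 52 and 220 counts in Tia1+/- and 84, 64 and 62 in WT. PS19 libraries had 165, 105 and 95 and P301S Tia1+/- libraries 124, 96 and 58. It was highest in Tia1+/- library 3 and lowest in Tia1+/- library 1. Sstr5, a somatostatin receptor, likewise peaked in Tia1+/- library 3, with 17 counts, and had 0 to 13 in the others.

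Esr1, the oestrogen receptor alpha gene, had 54 counts in Tia1+/- library 3, 51 in PS19 library 2 and 10 to 44 in the rest. Crhr1, the corticotropin-releasing hormone receptor, had 590, 622 and 725 counts in P301S Tia1+/- against 520, 225 and 340 in PS19, and its lowest count in Tia1+/- was in library 3 (299). All 4 of these receptors are also expressed by brain cells. Ghrhr, Gnrhr and Avpr1b, the receptors that best mark pituitary cells, had 3, 2 and 1 counts in all libraries together (named after their values were seen).

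Of the 35 genes, 14 passed the filter on low counts and could be tested. With edgeR's quasi-likelihood test and Benjamini-Hochberg adjustment over 15440 genes, 0 of the 14 were called in any comparison. The unadjusted p was under 0.05 for 2 genes between Tia1+/- and WT, 4 between PS19 and WT, 8 between P301S Tia1+/- and PS19, 6 between P301S Tia1+/- and Tia1+/-, and 7 for the interaction (the difference between the Tia1+/- effects with and without P301S tau). DESeq2's Wald test called 0, 1, 4, 1 and 4 of them, in the same order. Of all genes, DESeq2 called 972 between Tia1+/- and WT, 821 between P301S Tia1+/- and PS19 and 1216 for the interaction, where 2955, 2976 and 3535 had an unadjusted edgeR p under 0.05. By edgeR, 0% were called between PS19 and WT, where 2516 had an unadjusted p under 0.05 and DESeq2 called 431, and 0.00648% of genes were called in either direction for the interaction.

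From WT to Tia1+/-, the median of the log2 fold changes of the 4 tested receptors was 0.43, with 3 of them above 0, and that of all genes tested was 0.01. The 3 were Trhr, Sstr5 and Esr1, each highest in Tia1+/- library 3 among the libraries of these groups. The groups overlapped for all 4 receptors. For Crhr1, the log2 fold change between P301S Tia1+/- and PS19 was 0.84 (SE 0.257, edgeR adjusted p = 0.141), with the groups not overlapping. For Sstr5 it was −2.73 (SE 0.825, adjusted p = 0.139). Neither passed the threshold in this fit, but Crhr1 was called by DESeq2 and by edgeR with only the libraries of these groups. The 10 tested genes of the list of other pituitary genes, mostly granins and secreted proteins that neurons also make, had medians of −0.00467 between Tia1+/- and WT and 0.21 between P301S Tia1+/- and PS19. None of the 10 was called by edgeR, with an unadjusted p under 0.05 for 2 and 6 of them and DESeq2 calls for 0 and 3. Dlk1, on the same list, did not pass the filter (named after its values were seen). It had 80 counts in Tia1+/- library 3, but 3 and 2 in Tia1+/- libraries 1 and 2, 25 in PS19 library 2 and 1 to 10 in the rest.

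Processing and reception of the hormones were examined with further lists. The 6 genes of prohormone processing (Pcsk1, Pcsk2, Cpe, Pam, Pcsk1n and Scg5), which cut and amidate precursors such as Pomc, were all tested. In each of the 5 comparisons edgeR called 0 of them, with at most 2 at an unadjusted p under 0.05. Since edgeR called at most 0.712% of all genes in any comparison, 0 calls in this and the other short lists say little. DESeq2 called at most 2 (Cpe and Pcsk1, between PS19 and WT, where it called 431 of 15547 genes). Pcsk1, the convertase that cuts Pomc to ACTH, had 99.0, 96.0 and 55.7 CPM in Tia1+/- and 167, 180.0 and 139 in WT, without overlap. Its log2 fold change was −0.95 (SE 0.207, edgeR adjusted p = 0.0587), and DESeq2 called it in this comparison and for the interaction. Pcsk1 was also low in PS19 (102, 79.0 and 108 CPM) and in P301S Tia1+/- (103, 101 and 83.8), so WT was the group that stood apart. Of 12 hormone and peptide receptors, 7 were tested and 0 called by edgeR, with 1 to 4 at an unadjusted p under 0.05 and 0 to 2 called by DESeq2. Among them, Prlr, the prolactin receptor, had 16, 32 and 63 counts in Tia1+/- and 3, 14 and 18 in WT (named after its values were seen). It had 33, 38 and 30 counts in PS19 and 9, 4 and 6 in P301S Tia1+/-.

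Prlr was highest in Tia1+/- library 3, as Prl was, but in Tia1+/- library 1 it was at 1.1 CPM, below WT libraries 2 and 3 (1.18 and 1.37). It was at 0.24 CPM in P301S Tia1+/- library 2, rank 4 of 12 for Prl, and at 1.71 to 3.04 CPM in PS19, where Prl was at or near 0. Its log2 fold change was 1.37 (SE 0.593, edgeR adjusted p = 0.239) between Tia1+/- and WT and −3.84 (SE 0.872, adjusted p = 0.0684) for the interaction. DESeq2 called Prlr lower in P301S Tia1+/- than in PS19 or Tia1+/-, and for the interaction. Of the 10 genes of JAK and STAT signalling and its targets, through which prolactin and growth hormone act, 9 were tested and 0 called by edgeR in each comparison, with 3 to 5 at an unadjusted p under 0.05 and 0 to 3 called by DESeq2. Their log2 fold changes from WT to Tia1+/- had a median of −0.25, with 1 of 9 above 0. Igf1, a growth hormone target, had 146, 181 and 159 counts in Tia1+/- and 761, 267 and 248 in WT (named after its values were seen). DESeq2 called this difference and edgeR did not. PS19, the group with the least Gh, was also low in Igf1, with libraries at 12.5 to 14.2 CPM against 10.1 to 11.9 for Tia1+/-. The P301S Tia1+/- libraries reached 23.1 to 29.9 CPM, and WT library 1 was highest at 60.9. Group means of Igf1 thus neither rose nor fell steadily with those of Gh.

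Prl belongs to a large family of placental and pituitary genes in the mouse. Of the 26 other symbols of the family in the table, 4 had any count, with 14 counts in all and at most 3 in a library. Of those 14, 6 were in the 4 libraries with the most Prl. The Prl counts therefore had no parallel in its relatives.

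Markers of tissues next to the cortex differed between libraries as well. The striatum list summed to 2350 CPM in Tia1+/- library 3, the library with the most Prl and Gh, and to 185 to 393 CPM in the other 11. The 9 cortex markers were lowest there, at 514 CPM, followed by WT library 1 at 697, and were between 909 and 1570 elsewhere. Tia1+/- library 2, second in Prl and Gh, did not share this, with a striatum sum of 222 CPM. The 8 striatum genes of the list in the table included Drd2, which lactotrophs also express.

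The olfactory bulb list, with all 11 genes present, summed to 1550 CPM in WT library 1, 1000 to 1150 CPM in P301S Tia1+/-, 232 CPM in WT library 2 and 230.0 in Tia1+/- library 3, and 19.0 to 56.6 CPM in the rest. S100a5, a gene of olfactory sensory neurons on this list, was called higher in P301S Tia1+/- than in PS19 (log2 fold change 8.26, SE 1.34, edgeR adjusted p = 0.0435). It was the only gene of the lists that edgeR called in any of the 5 comparisons, and its adjusted p rose to between 0.0844 and 0.203 with any 1 of the 6 libraries left out. The bulb sum was thus high in all P301S Tia1+/- libraries, of which library 2 alone had a Prl count above 12, and low in Tia1+/- libraries 1 and 2, which had much Prl.

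The hypothalamus, which lies above the pituitary and holds Pomc neurons, was represented by 16 genes, of which Otp and Hmx3 were at 0 in every library and 2 passed the filter. The list's sum was 73.9 CPM in WT library 1, 47.9 to 52.9 in P301S Tia1+/- and 2.17 to 14.8 elsewhere. Most of it was Trh, also an olfactory bulb gene, with 3680 of 4033 counts. Agrp, made by the arcuate neurons beside those of Pomc, had 3 to 16 counts in each library, with 11, 3 and 7 in Tia1+/- and 6, 10 and 11 in P301S Tia1+/-. It was not high in the libraries with the most Pomc. Nkx2-1 had 15 counts in Tia1+/- library 3 and at most 3 elsewhere.

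The 8 choroid plexus genes summed to 9.32, 22.5 and 44.1 CPM in Tia1+/- libraries 1, 2 and 3. Of the sum in library 3, 32.5 CPM was Clic6, whereas Ttr, the main secreted protein of the choroid plexus, had 4.69, 15.6 and 3.54 CPM. The highest sum, 49.1 CPM, was in PS19 library 1, with 6 Prl counts, and the sum in P301S Tia1+/- library 2 was 6.36 CPM. The 7 thalamus genes summed to 215 to 232 CPM in Tia1+/-, against 188 to 585 in the other groups, and the 6 genes of the meninges to 21.7 to 68.9 against 32.4 to 228. Of the 56316 thalamus counts, Rora gave 31109 and Calb2, also an olfactory bulb gene, 20385, so the sum says little of the other genes. In Tia1+/- library 3, Tcf7l2 and Tnnt1 were at their highest (80 and 154 counts) and Rora at its lowest (1496). Of 5 blood genes, 4, the globins, were at 0 in every library. The part of other tissues, of sex and of the libraries' preparation in the Prl, Gh and Pomc counts was not tested.

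**Figure D4:**
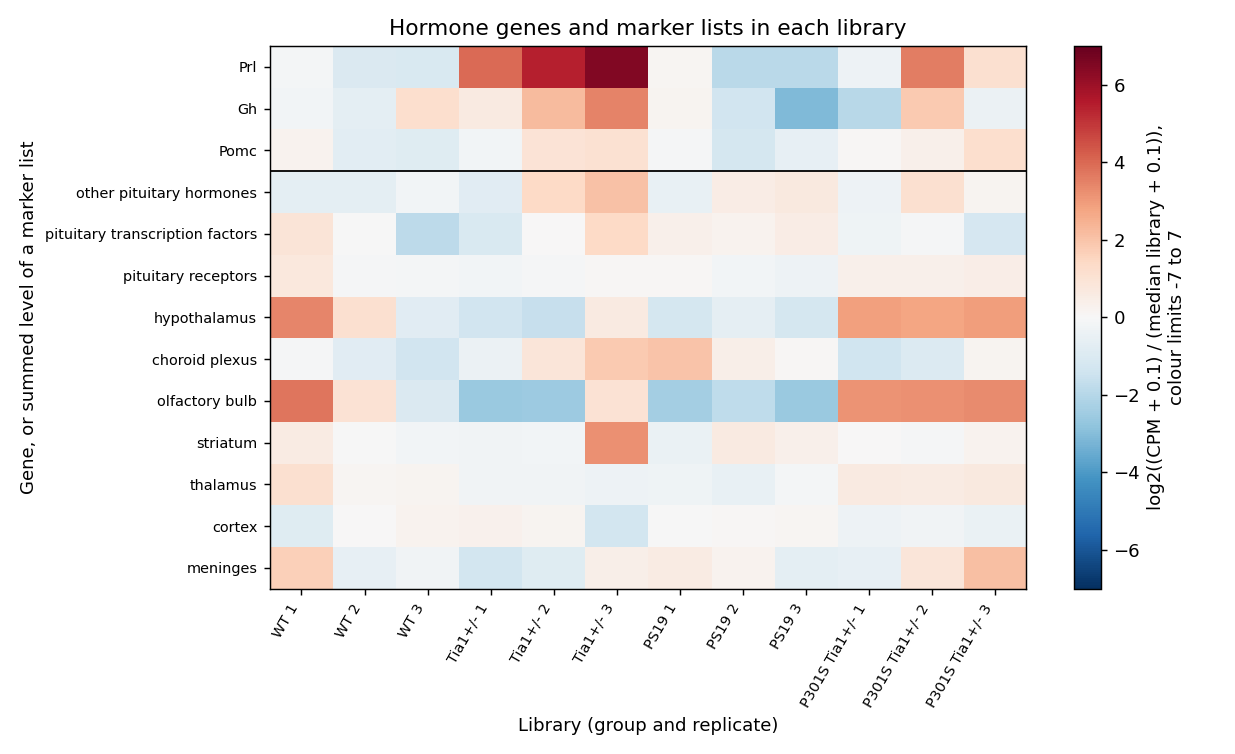
Level of the 3 hormone genes (above the line) and summed level of each marker list (below it) in each library, as log2 of (CPM + 0.1) over that of the median library, with colours from -7 to 7. The row of Prl is red in Tia1+/- libraries 1 to 3 and P301S Tia1+/- library 2. The row of the striatum is red in Tia1+/- library 3, and that of the olfactory bulb in WT library 1 and the P301S Tia1+/- libraries.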

How the data were processed

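The authors aligned paired-end reads of a stranded total RNA kit to mm10, with TopHat2 2.0.6 and featureCounts per the labels' processing notes, and deposited raw counts per gene for 12 libraries, 1 a mouse. The strand setting and gene annotation are not given in the sources used here. From these counts, TMM factors, CPM and the quasi-likelihood test were computed with edgeR 4.0.16 in R 4.3.3, in 1 fit of 12 libraries with a mean per group. filterByExpr kept 15440 genes. DESeq2 1.42.0 was an alternative. Others were another normalization, other filters, only the libraries compared, the replicate number as a block, and each library left out.

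The members and lists were chosen with earlier results of these data known. The genes named are Prl, Gh and Pomc, listed pituitary hormones, factors and receptors with at least 10 counts in a library, called genes of other lists, and the 10 genes most alike by r. Other listed genes were named after their values were seen. Some genes that the rule would name are not reported here. Gene positions come from GENCODE M21 and promoters from RefSeq. The test was checked on simulated data. Replicate numbers were checked for pairing over 18 pairs of libraries, and 7 residual correlations were above 0.1 (median −0.0796, from −0.562 to 0.41). All 3 pairs of Tia1+/- with P301S Tia1+/- were above it, at 0.106, 0.167 and 0.253. Nothing states that a number marks a litter or a day, and p values measure only the spread between these libraries.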

Additional observations from a re-analysis of the deposited data

How the results depend on the processing

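The Tia1+/- means of Prl, Gh and Pomc were 18.3, 4.84 and 2.43 CPM, and the same with DESeq2 size factors. Scaled by the library total they were 18.7, 4.94 and 2.45. With 1 library left out they ranged from 10.9 to 24.7, 2.56 to 6.64 and 2.07 to 3.02 CPM. Leaving out 1 of 3 libraries cannot move a mean by as much as their SD, so no stability is read from these ranges. Of the 10 genes most like Prl, Gh and Pomc, 0, 2 and 4 stayed in the first 10 with Spearman's rho, 6, 5 and 6 with a pseudocount of 0.1, and 3, 2 and 6 without the library highest in the gene.

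The count of pituitary list genes called was 0 in all 5 comparisons with the replicate block, and also 0 with that block in the 6 libraries of Tia1+/- and P301S Tia1+/- alone, a fit added after seeing the data in which 145 of all genes were called against 334 without the block. It was 0 with 1 library left out except for the interaction (0 to 3: 3 without WT library 3, Crhr1, Cyp2f2 and Gal, and 2 without Tia1+/- library 3, Gal and Rbp4). DESeq2's Wald test called 1 gene between PS19 and WT (Gal), 4 between P301S Tia1+/- and PS19 (Crhr1, Cyp2f2, Gal and Rbp4), 1 between P301S Tia1+/- and Tia1+/- (Cyp2f2) and 4 for the interaction (Crhr1, Cyp2f2, Gal and Rbp4). With only the libraries of P301S Tia1+/- and PS19, 6 were called (Chga, Chgb, Crhr1, Gal, Rbp4 and Scg2). The cause was not tested. The block changed the call of no pituitary list gene. S100a5, between P301S Tia1+/- and PS19, had an adjusted p from 6.57e-09 (DESeq2) to 0.203 (without PS19 library 2), and 0.102 with the block, alternatives added after seeing the data.

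The number of all genes called depended on the fit. For Tia1+/- against WT it was 110 in the reported fit, 972 with DESeq2, 9 with the block, 6 with only the libraries compared, and 8 to 497 with 1 library left out (497 without WT library 3). For P301S Tia1+/- against PS19 it was 37, 821, 7, 3025 and 6 to 12. For PS19 against WT it was 0 and 431 with DESeq2, for P301S Tia1+/- against Tia1+/- 0 and 403, and for the interaction 1 and 1216, with 0 to 1035 when 1 library was left out. Counts of a few reads, as of Pou1f1 or Tshb, are limited by depth.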
